A study of Mus musculus with 10 samples.

Results

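The bone morphogenetic protein (BMP) genes described here are 5 ligands (Bmp2, Bmp4, Bmp5, Bmp6 and Bmp7), 3 receptors (Bmpr1a, Bmpr1b and Bmpr2) and 2 secreted antagonists (Nog and Chrd). They were taken by gene symbol, and all 10 were found among the 52227 genes of the count table. The cortical hem (CH), the signaling center at the medial edge of the telencephalon, was isolated by laser capture microdissection at embryonic day 13.5 (e13.5), and each library pooled the sections of 1 embryo. The CH of 5 wild-type embryos was compared with that of 5 Lmx1a-/- embryos, which were homozygous for dreherJ (drJ), a point mutation that leaves an inactive Lmx1a protein. Mice were on a mixed background, littermates served as controls, and the dissected area was set from neighboring sections stained for Lmx1a. Levels are read counts relative to the TMM-scaled library size (normalized CPM). Genotypes were compared with the quasi-likelihood test of edgeR over the 21664 genes that reached 10 counts in 3 or more libraries. A gene passed when its false discovery rate (FDR), adjusted after Benjamini and Hochberg over all of these genes, was under 0.1.

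BMPs are secreted proteins of the TGF-beta superfamily. A ligand dimer brings type I receptors such as Bmpr1a and Bmpr1b together with type II receptors such as Bmpr2, the type I receptor is phosphorylated, and it phosphorylates Smad1, Smad5 and Smad9, which enter the nucleus with Smad4 and act on genes such as those of the Id and Msx families. Noggin (Nog) and chordin (Chrd) bind ligands outside the cell and keep them from the receptors. In the dorsal telencephalic midline several Bmp genes are transcribed side by side, and BMP signaling there is known for its part in specifying the choroid plexus and the hem.

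The libraries held between 19145952 and 36462780 counts. Lmx1a was transcribed in both genotypes, at 45.6 to 90.8 CPM in wild-type and 89.9 to 145 CPM in Lmx1a-/- libraries. Transcripts of the sex chromosomes were uneven over the genotypes: Xist lay between 4400 and 5170 CPM in wild-type embryos 2 to 5 and at most at 1.15 CPM in wild-type embryo 1 and all 5 mutants, which alone had the Y-linked Ddx3y, Eif2s3y, Kdm5d and Uty (65.6 CPM or more). Sex and genotype therefore cannot be told apart except through wild-type embryo 1. The 6 hem markers were present in every library, with a summed level of 850 to 1660 CPM in wild-type and 723 to 1040 CPM in Lmx1a-/- CH. Of the 6, 4 passed and were lower in the mutants (Wnt2b, Wnt5a, Wnt9a and Lmo2), against 2.29% of all genes tested. The paper had reported Wnt2b, Wnt9a and Lmo2 as lower from these same libraries, so that this count rests partly on the choice of list. Rspo2, with the most reads of the 6, lay at 287 to 745 CPM in wild-type and 282 to 527 CPM in mutant libraries. The dissected tissue also held other cell types. Summed markers in wild-type and mutant libraries, respectively, were 123 to 473 and 151 to 221 CPM for choroid plexus epithelium (12 genes, led by Otx2 and Clic6), 369 to 947 and 286 to 550 CPM for meninges and mesenchyme (10 genes, led by Col1a2 and Col1a1), and 236 to 439 and 159 to 228 CPM for Cajal-Retzius cells (7 genes, led by Reln and Trp73). They were 738 to 1190 and 838 to 1300 CPM for neurons (8 genes, led by Map2 and Dcx), 240 to 538 and 418 to 617 CPM for cortical neuroepithelium (4 genes, led by Lhx2 and Pax6), and 590 to 1290 and 254 to 541 CPM for red blood cells (6 genes, led by Hbb-y and Hba-x). Endothelium (9 genes, led by Cdh5 and Flt1) and microglia (6 genes, led by Csf1r and Cx3cr1) stayed at or below 89.4 and 25.5 CPM. In such bulk libraries fewer cells of a type and less RNA per cell cannot be told apart. Wild-type embryos 3 and 4 stood apart. Embryo 3 had the lowest choroid plexus and hem marker sums and the highest meningeal and neuroepithelial sums of its genotype. Embryo 4 stood far above the other 4 wild-type embryos for 589 of the tested genes, against 170 to 286 genes in the other libraries, and 9 markers of surface epithelium, a list written after this was seen, summed to 1690 CPM there and to at most 214 CPM elsewhere. Results that rest on either embryo are given with and without it.

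All 10 genes had counts in every library, with Bmpr1a, Bmpr2, Bmp7, Bmp6 and Bmp4 at the highest levels in wild-type CH and Bmp2, Nog and Chrd at the lowest. Because the genes differ in length, levels were set against each other per kilobase of exon (RPKM, normalized CPM per kilobase). In wild-type CH the order of the mean RPKM (± SD, n = 5) was Bmpr1a (39.4 ± 4.42), Bmpr2 (35.5 ± 2.76), Bmp7 (26.8 ± 7.84), Bmp6 (19.8 ± 4.54), Bmp4 (14.5 ± 4.88), Bmp5 (6.69 ± 2.26), Bmpr1b (3.88 ± 0.753), Bmp2 (2.26 ± 2.34), Nog (1.93 ± 0.494) and Chrd (0.221 ± 0.0603). Only the step from Nog to Chrd separated neighbors whose ranges over the 5 wild-type libraries did not overlap. The place of Bmp2 rested on wild-type embryo 4 (6.32 RPKM), without which its mean was 1.25 ± 0.678 RPKM and lay below that of Nog (1.83 ± 0.50 RPKM, n = 4). Within a library the order was steadier, since Bmp7 exceeded Bmp6 and Bmp4 exceeded Bmp5 in all 5 wild-type libraries, and Bmp6 exceeded Bmp4 in 4 of 5. With the longest transcript in place of all exons as the length, Bmpr2 (49.6 RPKM) came before Bmpr1a (42.0 RPKM) and the rest of the order was the same. In Lmx1a-/- CH the order was the same except that Bmp6 (16.2 ± 1.43 RPKM) came before Bmp7 (14.2 ± 2.0 RPKM) and Bmp2 (4.07 ± 1.01 RPKM) came before Bmpr1b (2.72 ± 0.714 RPKM).

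**Figure D1:**
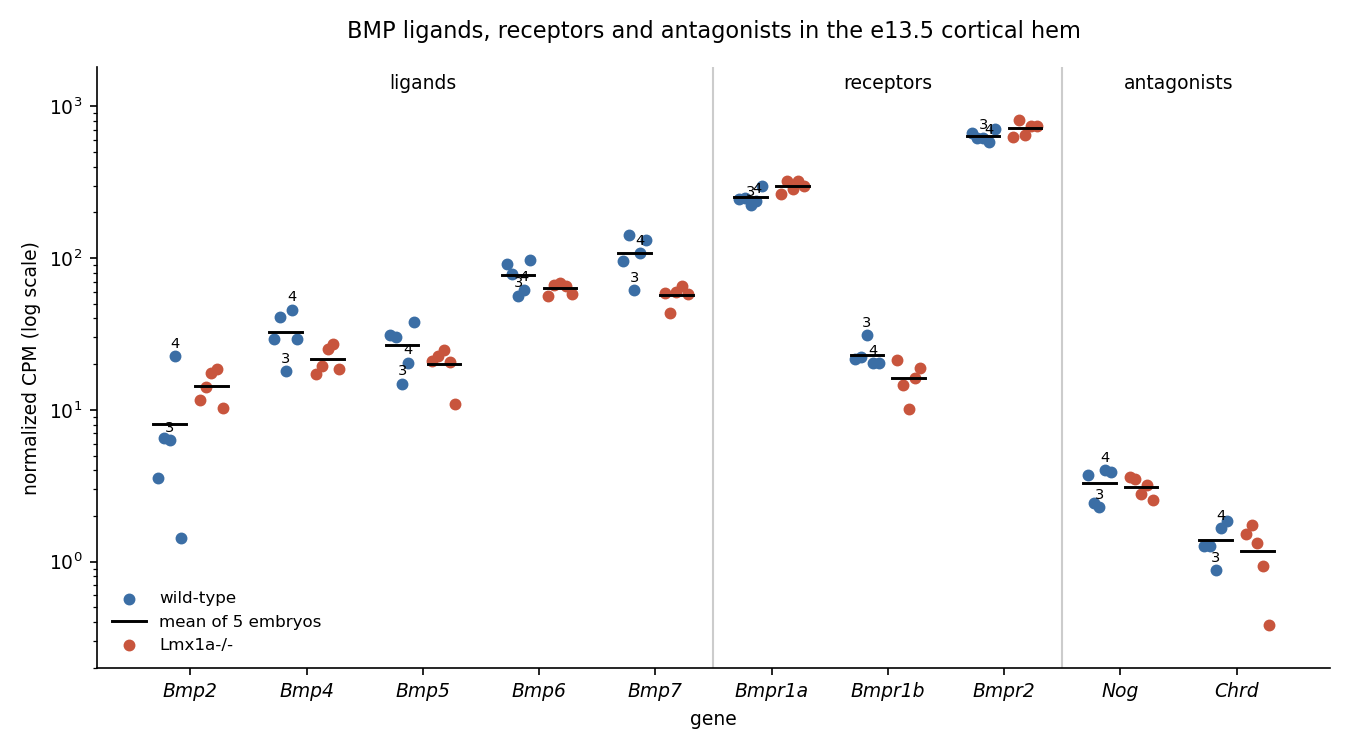
Normalized CPM (log axis) of the 10 genes in each library, with wild-type embryos in blue, Lmx1a-/- embryos in red, a bar at the mean of 5 embryos, and the numbers 3 and 4 marking wild-type embryos 3 and 4. Bmp7 was lower in the mutants, with wild-type embryo 3 among them, and Bmp2 of wild-type embryo 4 (22.5 CPM) stands above the other 4 wild-type embryos.

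Of the 10 genes, Bmp7 passed the threshold and was lower in Lmx1a-/- CH, and the other 9 did not pass. Over all genes tested, 2.29% passed and were lower and 1.72% passed and were higher. No member rose by edgeR's quasi-likelihood test, its likelihood ratio test or DESeq2, although Bmpr1a had an unadjusted p under 0.05 with a higher level. Among the members with lower levels, Bmp4, Bmp7 and Bmpr1b had an unadjusted p under 0.05. Of all 21664 genes tested, 1885 had such a p with a lower level and 1660 with a higher level. The fitted change was negative for 7 members and positive for Bmp2, Bmpr1a and Bmpr2, with a median log2 fold change of -0.26 over the 10 members and -0.0049 over all genes tested. For none of the 10 did the libraries of the genotypes separate entirely. Among all tested genes, 2.27% had all wild-type libraries above all mutant ones, and 2.17% had all mutant libraries above all wild-type ones.

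**Figure D2:**
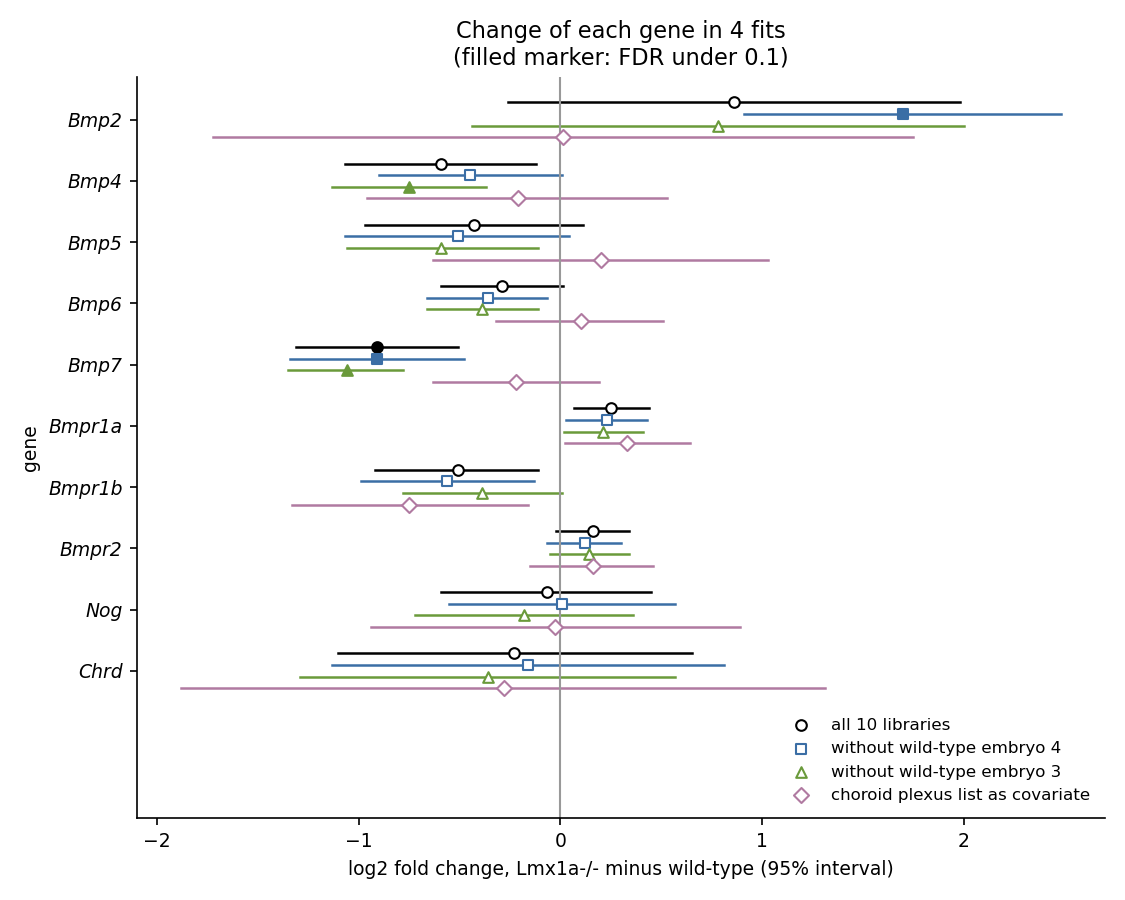
Log2 fold change of each gene (Lmx1a-/- minus wild-type) with its unadjusted 95% interval in 4 fits of edgeR, filled where the FDR was under 0.1. Bmp7 passed in 3 of the 4 fits, Bmp2 only without wild-type embryo 4 and Bmp4 only without wild-type embryo 3, and with the choroid plexus covariate no gene passed.

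Bmp7 (ENSMUSG00000008999, chromosome 2 of GRCm38, 172868012 to 172940321) encodes a ligand of the BMP5, BMP6 and BMP7 subgroup. Its mean level over 5 embryos fell from 108 ± 31.5 CPM (SD) in wild-type to 57.1 ± 8.06 CPM in mutant CH, which is a log2 fold change of -0.91 (SE 0.19, 95% interval -1.31 to -0.51, edgeR FDR = 0.0228). In the order of the embryo numbers, the levels were 95.9, 142, 61.4, 108 and 131 CPM for wild-type and 58.7, 43.6, 59.4, 65.4 and 58.1 CPM for Lmx1a-/- libraries. The 5 mutants were close to each other, 4 wild-type embryos lay above all of them, and wild-type embryo 3 fell within the mutant range. Bmp7 passed in each of the 10 fits that left out 1 embryo, with log2 fold changes from -1.06 to -0.80 (edgeR FDR from 0.000806 to 0.0609). The lowest FDR was that without wild-type embryo 3, and without embryos 3 and 4 together the log2 fold change was -1.11 (edgeR FDR = 0.000928). Wild-type embryo 1, which like the mutants lacked Xist, had 95.9 CPM against 43.6 to 65.4 CPM in the mutants. A fit of the 6 libraries without Xist, in which that embryo was the lone wild-type library and was assumed to vary as the mutants did, gave -0.75 (edgeR FDR = 0.188).

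Markers of choroid plexus epithelium moved with Bmp7, and so did those of the hem. The hem sums were 1330, 1420, 850, 1230 and 1660 CPM in wild-type embryos 1 to 5 and 723 to 1040 CPM in mutants. As for Bmp7, wild-type embryo 3 alone lay within the mutant range. No fit took the hem list as a covariate, and that list holds genes already reported as lower in these libraries. Of the 12 choroid plexus markers, 11 were tested, 3 passed and were lower (Ttr, Calml4 and Slc4a5), and 0 passed and were higher. Of all genes tested, 2.29% passed and were lower and 1.72% passed and were higher. At an unadjusted p under 0.05 there were 8 lower and 0 higher markers, against 1885 and 1660 of the 21664 genes tested. By DESeq2 there were 6 lower and 0 higher ones, against 976 and 790 of these genes. Ttr, the transthyretin gene that choroid plexus epithelium transcribes heavily, ranged from 5.74 to 164 CPM in wild-type and from 1.14 to 15.1 CPM in mutant libraries. Kl had 0 counts in at least 1 library and at most 0.571 CPM, and Kcne2 had 0 counts in mutant embryos 2 and 4. Otx2, the marker with the most reads, did not pass (log2 fold change -0.25, edgeR FDR = 0.679). The wild-type library with the lowest summed choroid plexus markers, embryo 3 (123 CPM), was also the one with the lowest Bmp7, and the 3 with 414 CPM or more were embryos 1, 2 and 5. Wild-type embryo 4 had 241 CPM of these markers against 221 CPM in mutant embryo 3, with Bmp7 levels of 108 and 59.4 CPM. The mean log2 level of the tested markers was 2.72 and 2.18 in these libraries, and 1.44 to 2.27 over the mutants. The part of the markers in the Bmp7 levels of this pair was not tested. With the mean log2 level of the list as a covariate, the log2 fold change of Bmp7 was -0.22 (SE 0.19, 95% interval -0.63 to 0.19, edgeR FDR = 0.783), and over all genes 20 lower and 26 higher genes passed. Since the marker level follows the genotype apart from wild-type embryo 3, the share of choroid plexus tissue and the genotype cannot be told apart in these libraries. Of the 10 meningeal markers 3 passed and were lower (Dcn, Lum and Pdgfra), against 2.29% of all genes tested. With the mean level of the meningeal list as a covariate, the log2 fold change of Bmp7 was -0.99 (edgeR FDR = 0.0221).

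**Figure D3:**
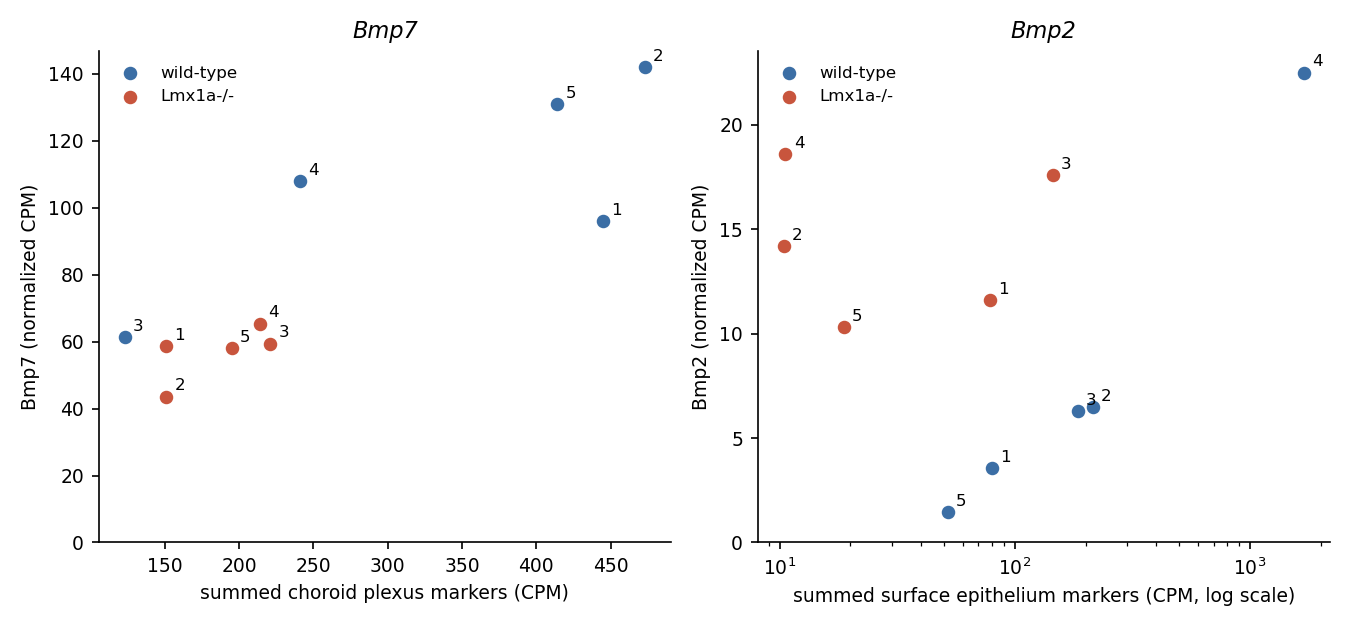
Left, Bmp7 (normalized CPM) against the summed choroid plexus markers (CPM), and right, Bmp2 against the summed surface epithelium markers (CPM, log axis), with 1 point per library and its embryo number. The 5 mutants and wild-type embryo 3 lie at or below 65.4 CPM of Bmp7 and 221 CPM of the choroid plexus markers, and wild-type embryo 4 lies alone at 1690 CPM of the epithelial markers.

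Bmp2 (ENSMUSG00000027358, chromosome 2, 133552159 to 133562885) encodes a ligand closely related to that of Bmp4, and it had the lowest mean RPKM of the 5 ligands in wild-type CH. Its levels were 3.55, 6.49, 6.29, 22.5 and 1.44 CPM in wild-type libraries 1 to 5 and 11.6, 14.2, 17.6, 18.6 and 10.3 CPM in mutant libraries 1 to 5. The 5 mutants lay above 4 of the wild-type embryos, and wild-type embryo 4 lay above all mutants. Over all 10 libraries the mean was 8.05 ± 8.33 CPM in wild-type and 14.5 ± 3.61 CPM in mutant CH, and the log2 fold change of 0.86 did not pass (SE 0.52, 95% interval -0.26 to 1.98, edgeR FDR = 0.448). Wild-type embryo 4 was the only wild-type library that overlapped the mutants, so that the genotypes separate without it by construction, and a pass follows in part from that choice. In the fit without wild-type embryo 4, where 1.25% of all genes tested passed and were higher, Bmp2 passed with a log2 fold change of 1.70 (SE 0.36, 95% interval 0.91 to 2.48, edgeR FDR = 0.0333). In the 6 libraries without Xist, which include wild-type embryo 1 (3.55 CPM) as the lone wild-type library, it was 2.02 (SE 0.41, edgeR FDR = 0.0976), where 0.217% of all genes passed and were higher. Leaving out any of the other 9 embryos gave 0.58 to 0.97, and none of these passed.

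Surface epithelial transcripts were also high in wild-type embryo 4. Their list was written after that embryo was seen to stand apart, so that their rise beside Bmp2 there follows from the choice. Krt5, a keratin of stratified epithelia, stood at 378 CPM in that embryo and between 11.2 and 43.4 CPM in the other wild-type libraries, and Krt14 stood at 177 CPM against at most 16.8 CPM. Dsp, which encodes a desmosomal protein and had the most reads of the list, stood at 640 CPM against 18.1 to 86.5 CPM. Of the 9 markers all were tested, and 2 passed and were lower in the mutants (Pkp1 and Perp), against 2.29% of all genes tested. All 9 were lower at an unadjusted p under 0.05, 5 passed as lower by the likelihood ratio test and 2 by DESeq2. Of the 21664 genes tested, 1885, 805 and 976 were lower by these 3 measures. Their sums were 51.8 to 1690 CPM in wild-type and 10.4 to 145 CPM in mutant libraries. Since the list was chosen from a wild-type embryo, these counts rest partly on that choice. Krt5, Krt14, Krt15, Pkp1 and Sfn had 0 counts in at least 1 library. Among wild-type libraries the order of Bmp2 was the order of the summed epithelial markers, from embryo 5 (51.8 CPM) over embryos 1 (79.9 CPM), 3 (185 CPM) and 2 (214 CPM) to embryo 4 (1690 CPM). The mutants did not follow it, since embryos 2 and 4, with sums of 10.4 and 10.6 CPM and no count of Krt5 or Krt14, had 14.2 and 18.6 CPM of Bmp2. With the mean level of these markers as a covariate, the log2 fold change of Bmp2 was 2.28 (edgeR FDR = 0.237), and with the choroid plexus covariate it was 0.015 (SE 0.80, 95% interval -1.72 to 1.75, edgeR FDR = 0.999). The part of the epithelial transcripts in the Bmp2 level of wild-type embryo 4 was not tested.

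Bmp4 (ENSMUSG00000021835, chromosome 14, 46383520 to 46390669) had 29.3, 40.9, 17.9, 45.8 and 29.3 CPM in wild-type embryos 1 to 5 and 17.3, 19.5, 25.3, 27.2 and 18.5 CPM in mutant embryos 1 to 5. Of the wild-type libraries, 4 lay above every mutant, and wild-type embryo 3 lay at the low end of the mutant range. The log2 fold change of -0.59 did not pass (SE 0.22, 95% interval -1.07 to -0.12, edgeR FDR = 0.19). Without wild-type embryo 3, the only wild-type library that overlapped the mutants, it was -0.75 and passed (SE 0.18, edgeR FDR = 0.0433). In that fit 2.66% of all genes passed and were lower, and the pass of Bmp4 follows in part from the choice of embryo. DESeq2 on all 10 libraries gave a log2 fold change of -0.60 (DESeq2 FDR = 0.0785). The other fits without 1 embryo did not pass, among them that without wild-type embryo 4 (-0.45, edgeR FDR = 0.361). The choroid plexus covariate gave -0.21 (edgeR FDR = 0.904).

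Bmp5 and Bmp6, which encode the ligands most like that of Bmp7, changed less than it and did not pass. Bmp6 (ENSMUSG00000039004, chromosome 13, 38345107 to 38500302) had 91.3, 78.8, 56.5, 61.8 and 96.9 CPM in wild-type and 56.5, 66.7, 68.7, 65.7 and 57.7 CPM in mutant embryos 1 to 5. Wild-type embryos 1, 2 and 5 lay above all mutants, and embryos 3 and 4 lay among them. The log2 fold change of Bmp6 was -0.29 (SE 0.14, 95% interval -0.59 to 0.012, edgeR FDR = 0.326). In a fit without wild-type embryos 3 and 4, Bmp6 passed at -0.50 (edgeR FDR = 0.0235), where 464 of 20970 genes passed and were lower. That fit was chosen after the data were seen. It leaves out the wild-type embryos that lay among the mutants, so that the pass follows in part from the choice. Bmp5 (ENSMUSG00000032179, chromosome 9, 75775364 to 75900310) had 31.1, 30.3, 14.9, 20.5 and 37.8 CPM in wild-type and 21.0, 22.5, 24.7, 20.7 and 11 CPM in mutant embryos 1 to 5. The same 3 wild-type embryos were the highest, the lowest level was that of mutant embryo 5, and the log2 fold change was -0.43 (SE 0.25, 95% interval -0.97 to 0.11, edgeR FDR = 0.425). With the choroid plexus covariate the fitted change was positive for both, at 0.20 for Bmp5 and 0.10 for Bmp6. Exons of Bmp5 share 1878 bases with Gm26903 on the opposite strand, and those of Bmp6 and Bmp4 share 224 and 89 bases with Txndc5 and Gm15217. The strand setting of the counting is not given in the sources used here, so reads from such stretches cannot be assigned to either gene.

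The makeup of the ligand transcripts was read from the share of each ligand in their summed level. The summed RPKM of the 5 ligands was 70.0 ± 15.9 in wild-type and 49.0 ± 5.76 in mutant CH (SD, n = 5), with wild-type embryo 3 (43.2) among the mutants (43.1 to 55.6) and the other wild-type embryos between 69.0 and 83.0. Bmp7 made up 34.6%, 42.4%, 35.3%, 36.1% and 40.6% of this sum in wild-type embryos 1 to 5 and 32.3%, 23.5%, 27.0%, 29.3% and 33.5% in mutant embryos 1 to 5. Its shares came close but did not overlap between genotypes, with 34.6% as the lowest in wild-type and 33.5% as the highest in mutant libraries. A share depends on the levels of the other ligands as well. Bmp2 made up 1.45%, 2.2%, 4.1%, 8.47% and 0.505% in wild-type and 7.21%, 8.63%, 9.03%, 9.4% and 6.74% in mutant embryos. Of the wild-type embryos, embryo 4 alone reached the mutant range. Bmp6 made up 21.2% to 33.9% in wild-type and 30.3% to 37.0% in mutant libraries, Bmp4 16.2% to 27.3% and 17.0% to 21.8%, and Bmp5 6.84% to 11.7% and 6.35% to 12.1%, all overlapping. The ratio of Bmp7 to Bmp6 was 1.02 to 1.74 in wild-type and 0.635 to 1.01 in mutant libraries, so that Bmp7 exceeded Bmp6 in every wild-type library and in mutant embryo 1. These shares are descriptions, and no test was made of them.

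**Figure D4:**
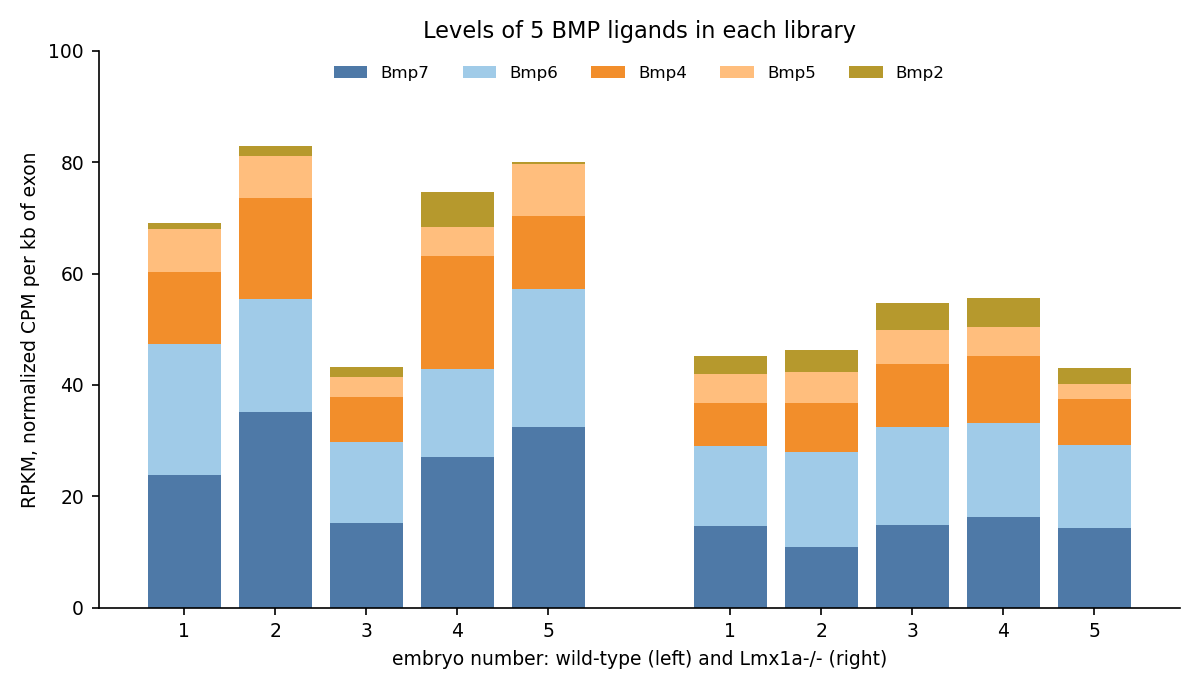
Stacked RPKM of Bmp7, Bmp6, Bmp4, Bmp5 and Bmp2 in each library, with wild-type embryos 1 to 5 on the left and Lmx1a-/- embryos 1 to 5 on the right. The bars of 4 wild-type embryos reach 69.0 or more, wild-type embryo 3 (43.2) lies within the mutant range of 43.1 to 55.6, and the Bmp2 segment is larger in the mutants than in the wild-type embryos other than embryo 4.

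Among the receptors, Bmpr1a and Bmpr2 varied less between libraries than Bmpr1b did. Bmpr2 (ENSMUSG00000067336, chromosome 1, 59763400 to 59879014), the type II receptor, had 670, 618, 621, 579 and 707 CPM in wild-type and 625, 816, 645, 741 and 740 CPM in mutant embryos 1 to 5, with overlapping genotypes. Its coefficient of variation among wild-type libraries, 7.78%, was the lowest of the 10 genes, and that of Bmp2, 103%, was the highest. The log2 fold change of Bmpr2 was 0.16 (SE 0.084, 95% interval -0.023 to 0.34, edgeR FDR = 0.376). Bmpr1a (ENSMUSG00000021796, chromosome 14, 34410734 to 34503341), a type I receptor, had 244, 248, 225, 237 and 298 CPM in wild-type and 263, 322, 286, 322 and 297 CPM in mutant embryos 1 to 5. All mutants lay above 4 of the wild-type embryos, and wild-type embryo 5 lay among them. The log2 fold change was 0.25 (SE 0.087, 95% interval 0.065 to 0.44, edgeR FDR = 0.163). Without wild-type embryo 5, the only wild-type library that overlapped the mutants, it was 0.32 and passed (edgeR FDR = 0.0583). In that fit 1.7% of all genes passed and were higher, and the pass of Bmpr1a follows in part from the choice of embryo.

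Bmpr1b (ENSMUSG00000052430, chromosome 3, 141837136 to 142169425), the other type I receptor, had 21.5, 22.4, 31.0, 20.4 and 20.3 CPM in wild-type and 21.3, 14.5, 10.2, 16.1 and 18.8 CPM in mutant embryos 1 to 5. Of the mutants, 4 lay below every wild-type library and embryo 1 lay among them, and wild-type embryo 3 was the highest. The log2 fold change was -0.51 (SE 0.19, 95% interval -0.92 to -0.11, edgeR FDR = 0.186), and it passed with DESeq2 (-0.52, DESeq2 FDR = 0.0914) but in none of the 10 edgeR fits without 1 embryo. Without wild-type embryo 3 the log2 fold change was -0.39 (SE 0.18, 95% interval -0.78 to 0.0067). The unadjusted p was then 0.0535 by edgeR's quasi-likelihood test (edgeR FDR = 0.315). The ratio of Bmpr1a to Bmpr1b per kilobase was 10.6, 10.4, 6.81, 10.9 and 13.8 in wild-type and 11.6, 20.8, 26.5, 18.7 and 14.8 in mutant embryos 1 to 5, so that 4 of the mutants exceeded every wild-type library. Bmpr1b differed from the ligands in how wild-type embryo 3 deviated, being its highest library here and its lowest for Bmp4, Bmp5, Bmp6 and Bmp7. Exons of Bmpr1a share 290 bases with Gm17110 on the opposite strand.

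Neither antagonist passed, and Chrd was the lowest of the 10 genes per kilobase in both genotypes. Nog (ENSMUSG00000048616, chromosome 11, 89300638 to 89302332) had 3.73, 2.44, 2.29, 4.00 and 3.92 CPM in wild-type and 3.59, 3.48, 2.79, 3.21 and 2.54 CPM in mutant embryos 1 to 5, from 54 to 116 counts a library. The mutants lay within the wild-type range, and the log2 fold change was -0.068 (SE 0.24, 95% interval -0.59 to 0.45, edgeR FDR = 0.925). Chrd (ENSMUSG00000006958, chromosome 16, 20733127 to 20742384) had 1.27, 1.26, 0.882, 1.66 and 1.85 CPM in wild-type and 1.53, 1.74, 1.33, 0.942 and 0.383 CPM in mutant embryos 1 to 5, from 11 to 50 counts a library. Its lowest library was mutant embryo 5, and the log2 fold change was -0.23 (SE 0.41, 95% interval -1.10 to 0.65, edgeR FDR = 0.835). A change of the size seen for Bmp7 lies within this interval, so that it could not be told from no change in these libraries. Exons of Chrd share 239 bases with Thpo on the opposite strand.

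The 56 other genes of the pathway were read from a list of further ligands, receptors, extracellular modulators, transducers, cellular inhibitors and response genes. Of these, 50 were tested, 6 passed and were lower (Nbl1, Smad9, Id1, Id2, Msx1 and Msx2) and 2 passed and were higher (Acvr2a and Chrdl1), against the 2.29% and 1.72% of all genes. Their median log2 fold change was -0.18. The genotypes did not overlap for 5 of the 50, with wild-type libraries above for 4 (Nbl1, Smad9, Ski and Fstl3) and mutant libraries above for Chrdl1. Among all tested genes, 2.27% had all wild-type libraries above and 2.17% all mutant libraries above.

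Other ligands were scarce in CH. Bmp8a, Bmp10, Bmp15, Gdf2 and Gdf6 did not reach the count minimum, and of the 5 tested none passed by edgeR's quasi-likelihood test, its likelihood ratio test or DESeq2, nor had an unadjusted p under 0.05. The ligands with the most reads among them, Bmp3 and Gdf10, had 7.28 ± 6.08 and 2.80 ± 0.719 CPM in wild-type and 5.59 ± 4.52 and 2.53 ± 1.5 CPM in mutant CH (SD, n = 5). Bmp3 was, like Bmp2, highest in wild-type embryo 4 (17.3 CPM). Among 7 tested receptors and coreceptors, the activin type II receptor Acvr2a rose, with 72.3 ± 5.38 CPM in wild-type and 89.3 ± 8.24 CPM in mutant CH (log2 fold change 0.30, SE 0.085, edgeR FDR = 0.0887), and it passed in 2 of the 10 fits without 1 embryo. Rgma, a BMP coreceptor, and Acvr2b had log2 fold changes of -0.12 and 0.12 (edgeR FDR = 0.657 and 0.71).

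Of 21 extracellular modulators, 1 fell and 1 rose by edgeR's quasi-likelihood test, against 3 and 4 by DESeq2. The likelihood ratio test gave 4 and 3, and an unadjusted p under 0.05 gave 4 and 4. Over all 21664 genes tested these counts were, in the same order, 497 and 373, 976 and 790, 805 and 555, and 1885 and 1660. Nbl1, which encodes a secreted BMP antagonist of the DAN family, had 16.7, 17.9, 14.5, 31.6 and 18.5 CPM in wild-type and 10.6, 4.62, 9.47, 8.56 and 3.86 CPM in mutant embryos 1 to 5. All wild-type libraries lay above all mutants, with a log2 fold change of -1.41 (SE 0.29, edgeR FDR = 0.0238), and Nbl1 passed in each of the 10 fits without 1 embryo. Chrdl1, an X-linked relative of chordin, had 6.38, 6.95, 7.0, 4.62 and 7.39 CPM in wild-type and 10.9, 13.5, 7.97, 9.86 and 9.64 CPM in mutant embryos 1 to 5. It rose by a log2 fold change of 0.68 (SE 0.18, edgeR FDR = 0.0791), and passed in 3 of the 10 fits without 1 embryo. Fstl1 and Twsg1, the modulators with the most reads, had log2 fold changes of 0.31 and -0.024 (edgeR FDR = 0.135 and 0.909).

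Among the 4 Smad transducers, Smad9 fell from 11.8 ± 3.45 to 3.20 ± 1.61 CPM (log2 fold change -1.88, SE 0.34, edgeR FDR = 0.0121), with no overlap between genotypes. Smad5 and Smad4, which had the most reads of the 4, had log2 fold changes of 0.027 and 0.038 with 95% intervals of -0.10 to 0.16 and -0.14 to 0.22. None of 7 cellular inhibitors passed by edgeR's quasi-likelihood test. An unadjusted p under 0.05 held for 3 of them (Bambi, Smad7 and Ski). By the likelihood ratio test 1 passed and by DESeq2 2, all with lower levels. Of the 21664 genes tested, 1885, 805 and 976 were lower by these 3 measures. Skil and Smurf2, with the most reads among the inhibitors, had log2 fold changes of 0.0035 and 0.0018. Of 6 response genes, Msx1 fell from 34.5 ± 11.7 to 7.94 ± 5.34 CPM (log2 fold change -2.11, SE 0.39, edgeR FDR = 0.0136), and Id1, Id2 and Msx2 fell by 0.89, 0.57 and 0.74 on the log2 scale (edgeR FDR = 0.0578, 0.0452 and 0.0752). Id3 and Id4 did not pass, with log2 fold changes of -0.21 and 0.93 (edgeR FDR = 0.577 and 0.118). Id4 alone of the 6 had a positive fitted change. By DESeq2, and likewise by the likelihood ratio test, 4 response genes passed as lower and 1 as higher. Over all 21664 genes tested these counts were 976 and 790 by DESeq2 and 805 and 555 by the likelihood ratio test. Smad9, Msx1 and Nbl1 passed in all 10 fits without 1 embryo, Id2 in 8, Id1 in 4 and Msx2 in 3. None of the 8 genes passed with the choroid plexus covariate, where Smad9, Msx1 and Nbl1 had log2 fold changes of -1.21, -1.51 and -1.39 (edgeR FDR = 0.456, 0.456 and 0.37). In the same fit those of Id1, Id2 and Msx2 were -0.30, -0.41 and -0.33, and those of Acvr2a and Chrdl1 were 0.18 and 0.58 (edgeR FDR from 0.574 to 0.83).

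**Figure D5:**
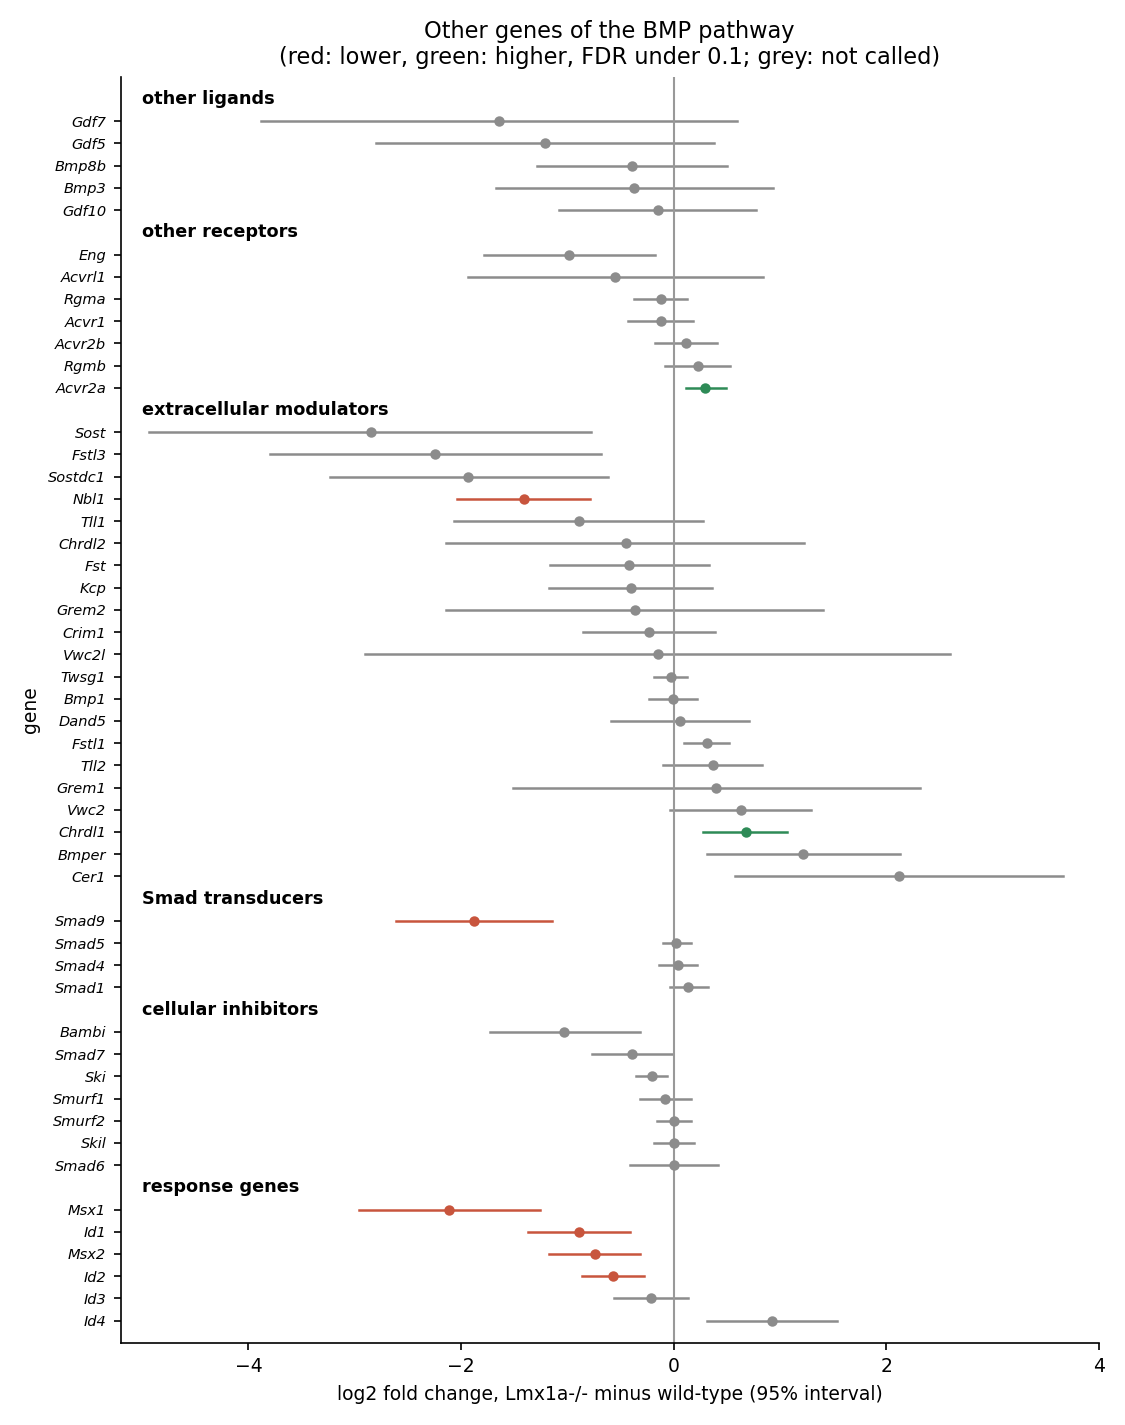
Log2 fold change (Lmx1a-/- minus wild-type, with its unadjusted 95% interval) of the 50 other pathway genes that were tested, grouped by role, with genes that passed in red (lower) and green (higher). The 4 lower response genes and Smad9 lie to the left of 0, and Smad5, Smad4 and Smad1 lie near 0.

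The tested genes with a pattern most like that of Bmp7 over the 10 libraries were Agbl4, Ntrk2 and Wnt9a, all lower in Lmx1a-/- CH. They were chosen for this likeness, so that their lower level in the mutants follows in part from the choice. The measure was the mean absolute difference of the log2 levels, each taken from its own mean, which was 0.133, 0.143 and 0.159 for these genes and 0.573 for the median tested gene. Ntrk2, the receptor of brain-derived neurotrophic factor, had 118, 127, 88.7, 119 and 153 CPM in wild-type and 68.8, 57.6, 57, 75.6 and 71.7 CPM in mutant embryos 1 to 5. Like Bmp7 it was lowest in embryo 3 among the wild-type libraries, though there it stayed above every mutant. Wnt9a, a Wnt ligand of the hem, ranged from 33.8 to 72.5 CPM in wild-type and from 24.9 to 43.1 CPM in mutant libraries, and Agbl4, which encodes a carboxypeptidase that acts on glutamylated tubulin, from 5.85 to 11.1 CPM and from 4.51 to 6.57 CPM.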

How the data were processed

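RNA of laser-captured CH was sequenced from 5 wild-type and 5 Lmx1a-/- embryos. Per the study's methods, the authors checked reads with FastQC 0.11.8, trimmed them with Trimmomatic, aligned them to GRCm38 with STAR 2.7.1a and counted them per Ensembl gene with HTSeq 0.11.2. The deposited values are these read counts, without filtering or normalization. The table has 52508 rows, of which 281 exact repeats were dropped. Positions and exon lengths come from GENCODE M21 of GRCm38.

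Groups and embryo numbers come from the labels. Genes reaching 10 counts in 3 or more libraries were tested in R 4.3.3 with edgeR 4.0.16 (TMM scaling, trended dispersion, two-sided quasi-likelihood test, legacy = TRUE, no covariate), after the filter and FDR of the study's methods. The SE is the size of the log2 fold change divided by the square root of F. DESeq2 1.42.0 was an alternative. The fits were tested on simulated data. The p-values set the difference between genotypes against the spread between embryos, and they do not separate genotype from sex or from the makeup of the dissected tissue. Intervals are unadjusted. RPKM and shares are descriptions without a test.

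The members and all gene lists were chosen with earlier results of these data known. Named are all members, the pathway genes that passed with the 1 or 2 highest of each group that did not, the 3 genes most like a member that passed, the 2 highest genes of each marker list, Lmx1a, Xist and 4 Y-linked genes. Pathway genes named beyond this rule, markers that passed, and the surface epithelium list were chosen after their values were seen. Alternatives were other tests, scalings and filters, covariates (choroid plexus, meninges and Xist), libraries without Xist, the embryo number as a block, and each embryo left out. The fits with an epithelial covariate and without wild-type embryos 3 and 4 were chosen after seeing the data.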

Additional observations from a re-analysis of the deposited data

Results flagged for a closer look

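The 10 BMP genes and the 8 other pathway genes that passed were examined in each genotype, 36 groups of 5 libraries in all, for a library whose gap to its nearest neighbor was more than 0.71 of the whole range. For normally distributed values such gaps arise in about 1 in 20 groups, and 3 were found. Over all tested genes, each wild-type library stood so far apart for 1.07% to 3.12% of genes, and each mutant library for 1.15% to 1.65%. As each group holds 5 such libraries, 3 gaps are not read as an excess. Bmp2 stood at 22.5 CPM in wild-type embryo 4, the highest of its genotype (gap 0.76 of the range), and Nbl1 stood at 31.6 CPM in the same embryo (gap 0.769 of the range). Without that embryo Nbl1 passed as well. Bmpr1b stood at 31.0 CPM in wild-type embryo 3 (gap 0.808 of the range), whose choroid plexus and hem marker sums were the lowest of its genotype, and the part of these markers in its level was not tested.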

How the results depend on the processing

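Of 240 refits of the 10 members, 221 kept the direction and the side of the threshold, 8 passed anew, 4 no longer passed (all Bmp7) and 7 changed sign. Bmp7 no longer passed with the choroid plexus (-0.22), Xist (-0.68) or surface epithelium (-0.89) covariate or in the libraries without Xist (-0.75). Signs changed for Bmp5 (0.20) and Bmp6 (0.10) with the choroid plexus covariate, Bmpr2 (-0.036) with the epithelial one, Nog without wild-type embryo 4 (0.0073) or 5 (0.0025) or mutant embryo 5 (0.0067; from -0.18 to 0.0073 with 1 embryo left out), and Chrd without mutant embryo 5 (0.006; from -0.40 to 0.006). The number of members that were lower, 1, became 3 with DESeq2, 2 without wild-type embryos 3 and 4, and 0 with the choroid plexus, Xist or epithelial covariate and in libraries without Xist. It lay from 1 to 2 with 1 embryo left out, and 2 came without wild-type embryo 3. The number that were higher, 0, became 1 in libraries without Xist and without wild-type embryos 3 and 4 (Bmp2 in both), and lay from 0 to 1 with 1 embryo left out, where 1 came without wild-type embryo 4 (Bmp2) or 5 (Bmpr1a).

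Of the other pathway genes, 6 lower ones became 10 with the likelihood ratio test, 11 with DESeq2, 2 with the epithelial covariate, and 0 with the choroid plexus or Xist covariate and in libraries without Xist. They ranged from 3 (without wild-type embryo 2 or mutant embryo 5) to 8 with 1 embryo left out. The 2 higher ones became 5 with the likelihood ratio test, 6 with DESeq2, 1 without a filter, and 0 at an FDR under 0.05, with the replicate block, in libraries without Xist and with the choroid plexus, meninges, Xist or epithelial covariate. They ranged from 0 (without wild-type embryo 1, 2 or 4 or mutant embryo 2, 4 or 5) to 4 (without wild-type embryo 3). The cause of these shifts was not tested. Over all genes, 497 lower and 373 higher ones became 805 and 555 with the likelihood ratio test, 976 and 790 with DESeq2, 292 and 200 with the meninges covariate, 134 and 56 with the epithelial one, 26 and 1 with the Xist one, 86 and 44 in libraries without Xist, 251 and 197 at an FDR under 0.05, and from 261 and 190 (without mutant embryo 4) to 604 and 455 (without mutant embryo 3) with 1 embryo left out. Scaling by RLE or the upper quartile changed no call among the 10 members.

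Embryo numbers did not pair the samples: the correlation of same-numbered deviations lay between -0.099 and 0.013, and no embryo matched its own number best. With the replicate block 353 lower and 248 higher genes passed, and Bmp7 passed at -0.87 (edgeR FDR = 0.0785). The summed ligand level of wild-type CH was 70.0 RPKM, and the longest transcript as the length moved it by less than its SD. Chrd had the fewest counts of the 10 genes (11 to 50 a library), and its 95% interval was -1.10 to 0.65.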
